A study of Mus musculus with 6 samples.

Results

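The 10 genes described here encode the machinery that copies and transcribes mitochondrial DNA, the activators of that machinery, and the proteins that fuse mitochondria. They were taken by name, as every array probe set annotated to Tfam, Tfb1m, Tfb2m, Polrmt, Polg, Nrf1, Gabpa, Mfn1, Mfn2 or Opa1, which gave 24 of the 45037 probe sets tested and 10 of the 18194 genes that the annotation names. A probe set is a group of short array probes read together as 1 measurement. The samples were 3 kidney samples of male ERRa KO mice, which lack the orphan nuclear receptor ERRα (gene Esrra), and 3 of WT males, all 2 to 3 months old, kept on a 12 h light-dark cycle with free access to a standard diet and to water. Left and right kidneys of a mouse were ground together, so a value is a mixture over every cell type present, and fewer cells of a type cannot be told apart from less RNA per cell. The labels call the replicates biological without naming the animals, the strain or the part of Esrra that was deleted, so p-values measure the spread between these samples. Values are RMA values on the log2 scale, where a difference of 1 is a doubling, and differences are ERRa KO minus WT.

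Mitochondria keep a small circular genome that is transcribed by its own RNA polymerase, POLRMT, together with the DNA-packaging factor TFAM and the initiation factor TFB2M, and copied by the DNA polymerase POLG. All of these proteins are encoded in the nucleus, where the transcription factors NRF1 and GABP (also called NRF2) and the coactivator PGC-1α are known to switch on many of their genes. ERRα is a partner of PGC-1α, and work in muscle and in cultured cells has linked it to genes of respiration and, among those described here, to Mfn2 and Gabpa. The proximal tubule and the thick ascending limb of the kidney are among the tissues richest in mitochondria.

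Promoter sequence was examined because the mice lack a DNA-binding factor and because NRF1 and GABP, encoded by members of the set, bind DNA themselves. RefSeq promoter windows of GRCm38.p6, from 250 bases before to 50 bases after the annotated start, were found for 10 of the 10 genes, 13 windows in all, since Nrf1 has 2 starts and Mfn2 has 3 that overlap. They were searched on both strands for the ERR motif TNAAGGTCA, its core AAGGTCA, the NRF1 motif (GCGC, any 2 bases, GCGC) and the ETS core CCGGAAG that GABP recognises. The ETS core was found in 5 of the 10 genes (Tfam, Polg, Polrmt, Gabpa and Mfn1), against 9.93% of the 27025 genes with a window. The NRF1 motif was found in 2 of the 10, Polrmt and Opa1, against 7% of genes, and neither the ERR motif (1.43% of genes) nor its core (5.38%) was found in any of the 13 windows. The ETS matches lay 43 to 37 bases before the start of Polrmt, 47 to 41 before Tfam, 44 to 38 before Mfn1, 38 to 32 before Polg and 93 to 87 before Gabpa, and the NRF1 match of Opa1 lay 59 to 50 bases before its start. Polrmt had 2 overlapping NRF1 matches across its start and was the only one of the 10 genes with both motifs. A match of letters is a description of these windows and not evidence of a bound factor. Nor does a window without a match show that a gene lacks a site, since sequence outside the windows and other spellings were not searched. The windows of 4 of the 6 genes with a match are shown, both with an NRF1 match and the ETS-bearing Tfam and Mfn1, each read 5′ to 3′ on the gene's own strand with the matched motifs in capitals. Polrmt lies at chr10:79746532-79746831 (minus strand), Opa1 at chr16:29579084-29579383 (plus strand), Tfam at chr10:71237995-71238294 (minus strand) and Mfn1 at chr3:32529232-32529531 (plus strand).
Polrmt: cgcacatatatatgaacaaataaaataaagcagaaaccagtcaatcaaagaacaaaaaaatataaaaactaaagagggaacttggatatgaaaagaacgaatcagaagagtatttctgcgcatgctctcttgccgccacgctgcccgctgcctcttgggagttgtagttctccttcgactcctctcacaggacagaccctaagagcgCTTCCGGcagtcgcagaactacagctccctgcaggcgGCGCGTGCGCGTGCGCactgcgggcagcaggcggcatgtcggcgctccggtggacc
Opa1: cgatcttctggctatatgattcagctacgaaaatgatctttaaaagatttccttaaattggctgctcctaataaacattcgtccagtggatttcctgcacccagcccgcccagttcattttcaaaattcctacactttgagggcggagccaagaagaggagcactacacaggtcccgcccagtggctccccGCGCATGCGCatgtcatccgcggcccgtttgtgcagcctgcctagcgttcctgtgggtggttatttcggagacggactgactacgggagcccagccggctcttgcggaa
Tfam: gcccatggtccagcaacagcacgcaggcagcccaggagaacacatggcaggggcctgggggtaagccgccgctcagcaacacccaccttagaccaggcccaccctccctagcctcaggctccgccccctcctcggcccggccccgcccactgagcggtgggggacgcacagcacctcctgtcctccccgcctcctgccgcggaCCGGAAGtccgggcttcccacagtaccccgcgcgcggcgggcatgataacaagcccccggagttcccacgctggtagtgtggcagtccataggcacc
Mfn1: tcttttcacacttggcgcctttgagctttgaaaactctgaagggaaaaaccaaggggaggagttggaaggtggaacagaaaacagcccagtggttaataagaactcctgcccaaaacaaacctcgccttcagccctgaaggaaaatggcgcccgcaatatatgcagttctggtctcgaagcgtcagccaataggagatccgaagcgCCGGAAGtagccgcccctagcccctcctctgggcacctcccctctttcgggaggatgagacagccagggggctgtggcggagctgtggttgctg

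**Figure D1:**
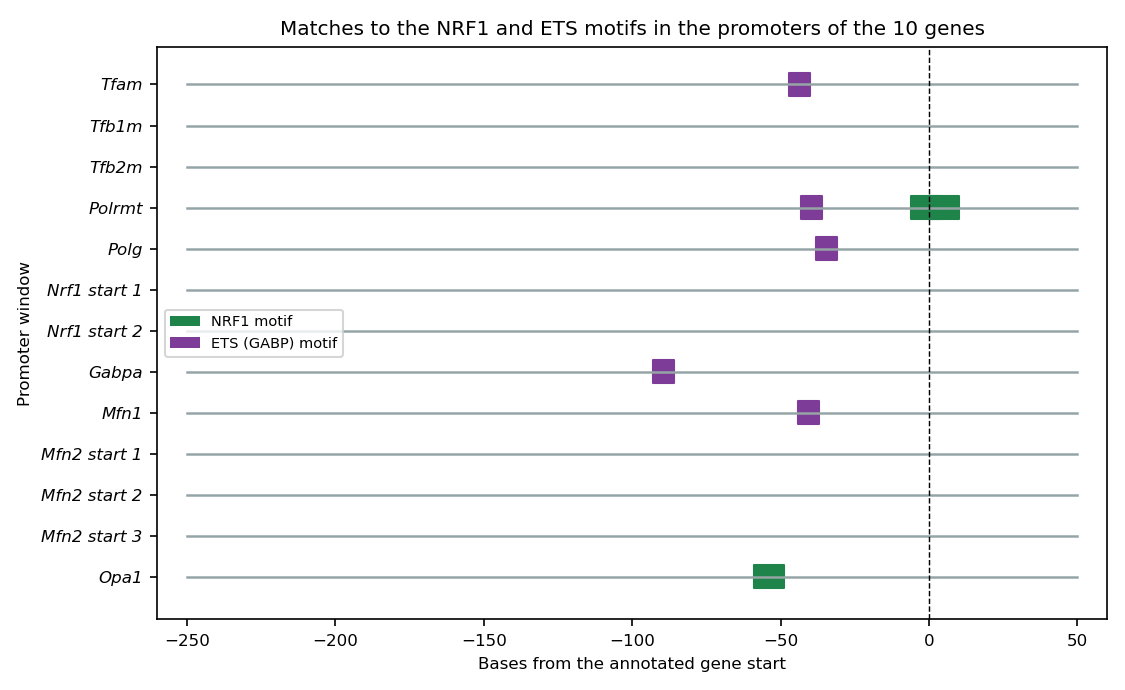
Positions of motif matches in the 13 promoter windows of the 10 genes, in bases from the annotated gene start; each grey line is a window from 250 bases before to 50 bases after the start (dashed line), green blocks are NRF1 matches and purple blocks ETS matches. The ETS matches of Tfam, Polrmt, Polg and Mfn1 sit within 47 bases before the start, and Polrmt carries both motifs.

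Before the genes themselves, the arrays were checked. The brighter probe set of Esrra read 6.66, 6.51 and 6.41 in ERRa KO kidneys, against 9.43, 9.43 and 9.52 in WT kidneys (log2 difference -2.93, limma adjusted p = 9.84e-06), which fits the labels of the series table. The authors' deposited table carries the same values under exchanged genotype heads for 45101 of 45101 probe sets, while its own fold change column follows the series table to within 7.8e-07. Genotypes were taken from the series table, and under the other heads every sign given here would turn. ERRa KO replicate 3 stood apart by liver transcripts: albumin (Alb) read 12.07 there and 6.48 to 6.80 on the other 5 arrays. The mean of 18 liver markers was 8.83 there and 6.62 to 6.82 elsewhere. With that array, 16 of the 18 were higher in ERRa KO than in WT kidneys by their means. The median difference of the 18 was 0.71 with that array and -0.037 without it. The labelled tissue was read on every array: the thick ascending limb gene Umod was 13.14 to 13.37 in ERRa KO and 13.50 to 13.55 in WT kidneys, lower without overlap (-0.29, limma adjusted p = 0.159), and the proximal tubule gene Slc34a1 was 13.61 to 13.65 in ERRa KO and 13.58 to 13.66 in WT kidneys.

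None of the 10 genes passed the test for a change between ERRa KO and WT kidneys. In limma's fit of the gene table, in which the brightest probe set stands for a gene, 0 of the 10 passed an adjusted p of 0.05, where 0.495% of all 18194 genes did (90 genes). At an unadjusted p under 0.05 there was 1 of the 10, Polrmt, against 12.4% of all genes. The genotypes' values did not overlap for 2 of the 10, Polrmt and Tfb1m, against 18.7% of all genes. ERRa KO means were higher for 6 of the genes, where 52.6% of all genes were higher, and lower for 4, with a median difference of 0.012 beside a median of 0.0070 over all genes. The differences ran from -0.12 to 0.089, and 28.9% of all genes differed by as much as the widest of them. The smallest change called anywhere in the gene table was 0.36 in size, and the 95% confidence intervals of all 10 genes lay inside it, between -0.24 and 0.22. On the linear scale those bounds are ERRa KO levels of 0.849 to 1.17 times WT. A missed threshold does not show equal levels, and shifts beyond these bounds lay outside the intervals of the probe sets that represent the genes.

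**Figure D2:**
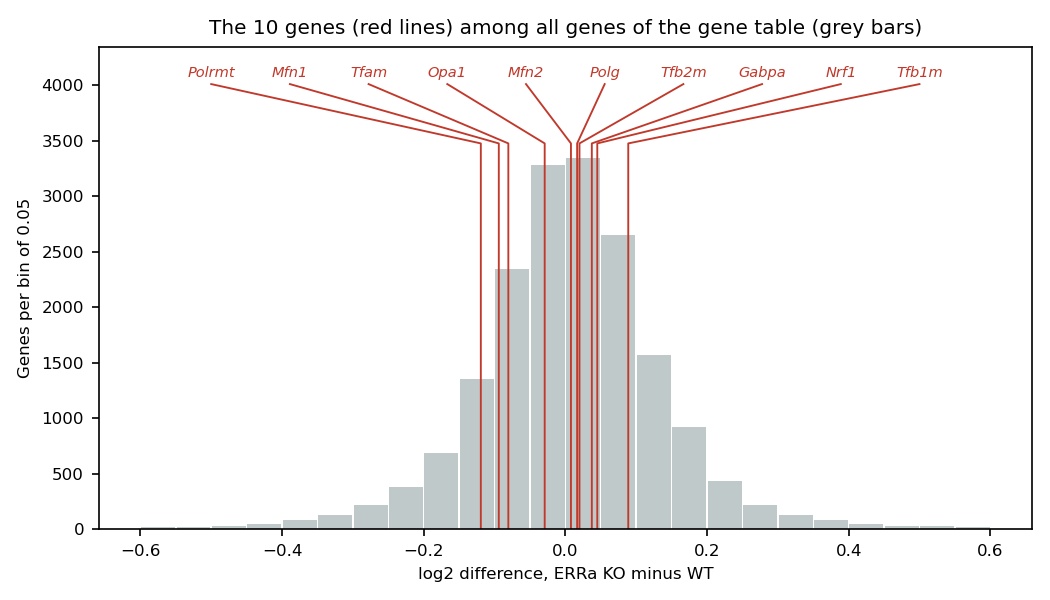
Histogram of log2 differences (ERRa KO minus WT) of all genes in bins of 0.05 (grey bars, number of genes on the vertical axis), with the 10 genes as red lines. The 10 lie between -0.12 and 0.089, in the middle of the distribution; 150 genes beyond 0.6 in either direction are not drawn.

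Polrmt, the mitochondrial RNA polymerase, came closest to a difference. It read 8.99, 9.01 and 9.03 in ERRa KO kidneys, against 9.12, 9.12 and 9.15 in WT kidneys. All ERRa KO values lay below all WT values, with a standard deviation (SD) of 0.017 in either genotype (n = 3 each). The difference was -0.12 (SE 0.051, 95% interval -0.24 to -0.0016), a level 0.921 times WT, with an unadjusted p of 0.0476 and a limma adjusted p of 0.393. This SE, like the others given, is limma's, which combines a gene's own spread with that of all features fitted. Here it is wider than the SDs of Polrmt alone would give, and the p-values of Polrmt rest on it. The unadjusted p was above 0.05 in 10 of the 14 alternative fits, including all 6 that left out an array (0.0628 to 0.109), and it was 0.0674 for this probe set in the fit of all probe sets. Its other probe set read 8.39, 8.46 and 8.38 in ERRa KO kidneys, against 8.46, 8.55 and 8.48 in WT kidneys. The same order held there without overlap, with a difference of -0.087 (probe set fit, SE 0.061, adjusted p = 0.666). Values lower in ERRa KO without overlap occurred in 9.56% of all genes and 8.39% of all probe sets.

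Tfam, which packages mitochondrial DNA and opens its promoters, read 8.86, 8.97 and 8.80 in ERRa KO kidneys, against 8.96, 8.97 and 8.94 in WT kidneys. ERRa KO replicate 2 sat at the WT level, so the genotypes overlapped. ERRa KO replicate 3, in which liver RNA was read, was the lowest. The difference was -0.080 (SE 0.061, limma adjusted p = 0.644), and it was -0.041 without ERRa KO replicate 3 (adjusted p = 0.841). Leaving out replicate 2 of that genotype gave -0.13 (adjusted p = 0.555). A dimmer probe set of Tfam read 6.17, 5.98 and 6.05 in ERRa KO kidneys, against 6.25, 6.15 and 6.15 in WT kidneys, a difference of -0.11 (adjusted p = 0.628), again with overlap.

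Tfb2m and Tfb1m descend from rRNA methyltransferases; TFB2M melts the promoter with POLRMT, while TFB1M methylates the small mitochondrial ribosomal RNA. Tfb2m was the steadiest of the 10. It read 9.67, 9.68 and 9.68 in ERRa KO kidneys, against 9.67, 9.66 and 9.63 in WT kidneys, a difference of 0.020 (SE 0.051, 95% interval -0.098 to 0.14). Tfb1m read 7.39, 7.48 and 7.37 in ERRa KO kidneys, against 7.31, 7.37 and 7.30 in WT kidneys. It was the only one of the 10 with all ERRa KO values above all WT values, narrowly (the nearest arrays read 7.3669 in ERRa KO and 7.3665 in WT), where 9.11% of all genes showed that order. Its difference was 0.089 (SE 0.058, limma adjusted p = 0.591). That probe set is of a kind (suffix _s_at) whose probes can match transcripts of more than 1 gene, and in the other Tfb1m probe set the difference was 0.060, with ERRa KO values of 6.33 to 6.35 inside WT values of 6.12 to 6.49.

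Polg, the catalytic subunit of the mitochondrial DNA polymerase, read 8.32, 8.24 and 8.19 in ERRa KO kidneys, against 8.22, 8.26 and 8.22 in WT kidneys. The ERRa KO arrays spread around the WT ones, and the difference was 0.017 (SE 0.057, 95% interval -0.12 to 0.15). Its 2 dimmer probe sets read lower in ERRa KO, with differences of -0.061 and -0.21 in the probe set fit, neither past the threshold (adjusted p = 0.844 and 0.705). The dimmest of them averaged 4.94 over the arrays, below the median of 5.01 to 5.06 of an array's probe sets, and ran from 4.49 to 5.27.

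**Figure D3:**
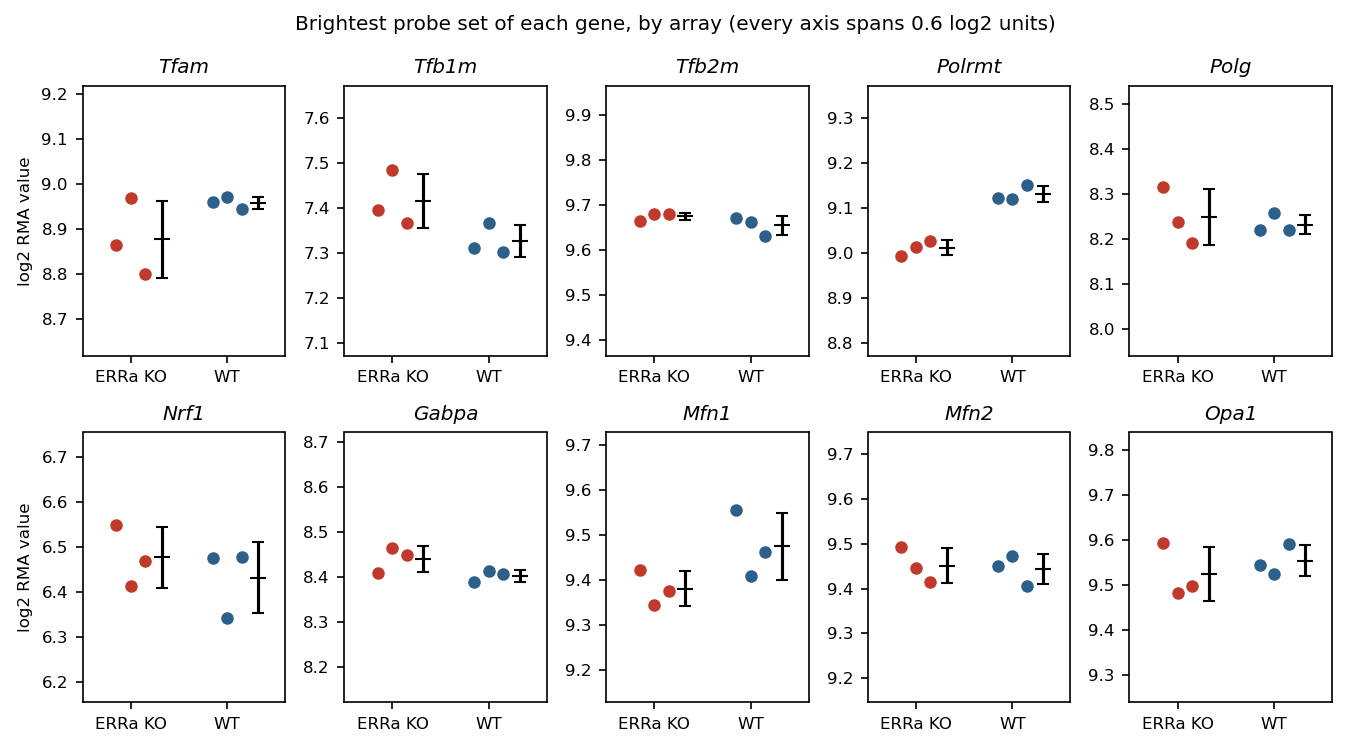
Log2 RMA values of the brightest probe set of each gene on every array, ERRa KO in red and WT in blue, with the mean and SD of the 3 arrays as a black bar beside them; every axis spans 0.6 log2 units. Polrmt and Tfb1m are the genes whose genotypes do not overlap, and the mean shifts are at most 0.12.

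Of the nuclear activators, Gabpa, the DNA-binding subunit of GABP, read 8.41, 8.46 and 8.45 in ERRa KO kidneys, against 8.39, 8.41 and 8.41 in WT kidneys. The lowest ERRa KO value lay within the WT range, and the difference was 0.037 (SE 0.051, 95% interval -0.082 to 0.16, limma adjusted p = 0.815). The other Gabpa probe set differed by -0.0011, with ERRa KO values of 7.37 to 7.43 inside WT values of 7.27 to 7.49.

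Nrf1, here nuclear respiratory factor 1 and not the stress factor gene Nfe2l1 that shares the alias, has 4 probe sets. The brightest read 6.55, 6.41 and 6.47 in ERRa KO kidneys, against 6.48, 6.34 and 6.48 in WT kidneys, overlapping values with a difference of 0.045 (SE 0.066, 95% interval -0.11 to 0.20). The dimmest of them, which gave the smallest p of all 24, read 3.62, 3.84 and 3.69 in ERRa KO kidneys, against 3.91, 4.13 and 4.05 in WT kidneys. The genotypes did not overlap there, and the difference was -0.31 (SE 0.085, 95% interval -0.51 to -0.12, unadjusted p = 0.00591, adjusted p = 0.249 over all probe sets). With a mean of 3.87 it lay below the median level of an array. The 2 remaining probe sets differed by 0.081 and -0.14, with overlap in both.

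The fusion genes encode GTPases of the outer membrane (Mfn1 and Mfn2) and of the inner membrane (Opa1). Mfn2, the mitofusin that has been described as a target of ERRα and PGC-1α in muscle, read 9.49, 9.45 and 9.41 in ERRa KO kidneys, against 9.45, 9.47 and 9.41 in WT kidneys. The values interleaved, and the difference of 0.0079 (SE 0.054, 95% interval -0.12 to 0.13) was the smallest in size of the 10 genes. Its other probe set averaged 3.27, near the floor of the array, and differed by 0.061.

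Mfn1 read 9.42, 9.35 and 9.38 in ERRa KO kidneys, against 9.55, 9.41 and 9.46 in WT kidneys. The highest ERRa KO value exceeded the lowest WT value, and the difference was -0.094 (SE 0.061, limma adjusted p = 0.59). Another Mfn1 probe set, of the _s_at kind, read 9.32 to 9.41 in ERRa KO kidneys and 9.39 to 9.40 in WT kidneys (difference -0.029). The remaining one, much dimmer with a mean of 5.26 over the arrays, differed by 0.13, so the probe sets of this gene differed in sign. Opa1, which fuses inner membranes and shapes cristae, read 9.59, 9.48 and 9.50 in ERRa KO kidneys, against 9.54, 9.52 and 9.59 in WT kidneys. These values overlapped, with a difference of -0.029 (SE 0.057, 95% interval -0.16 to 0.10), and the other 2 Opa1 probe sets differed by 0.033 and 0.084.

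Over all 24 probe sets, 12 were lower and 12 higher in ERRa KO kidneys, and 0 passed limma's adjusted threshold, where 0.111% of the 45037 did. At an unadjusted p under 0.05 there was 1, the dim Nrf1 probe set, against 10.9% of all probe sets. The genotypes did not overlap in 4 of the 24 (both of Polrmt, 1 of Nrf1 and 1 of Tfb1m), against 16.5% of all probe sets. Of the 9 genes with several probe sets, 5 had probe sets of opposite sign (Polg, Nrf1, Gabpa, Mfn1 and Opa1), and those of Tfam, Polrmt, Tfb1m and Mfn2 shared a sign. Below the median level lay 1 probe set each of Polg, Nrf1 and Mfn2. Those of Nrf1 and Polg held the most negative values, -0.31 and -0.21, and that of Mfn2 differed by 0.061.

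**Figure D4:**
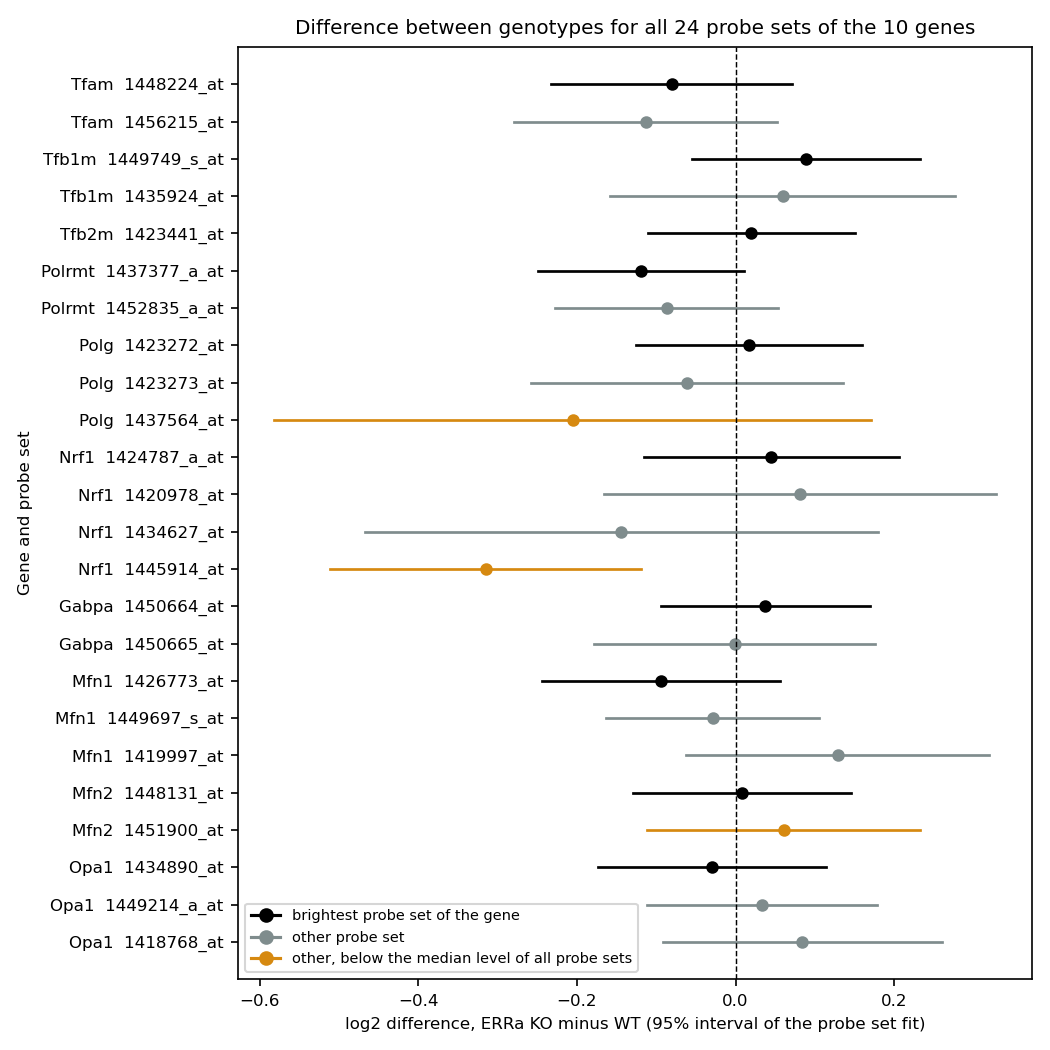
Log2 difference (ERRa KO minus WT, horizontal axis) of each of the 24 probe sets with its 95% interval from the probe set fit; black marks the brightest probe set of a gene, grey the others and orange those below the median level of all probe sets. The interval of the dim Nrf1 probe set, at -0.31, is the only one that leaves 0.

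The genes whose 6 array values ran closest to those of Polrmt, by the root mean square distance of values centred on each gene's mean, were Med1, a subunit of the Mediator complex that links nuclear receptors to RNA polymerase, at 0.011, Aff1, of transcription elongation complexes, at 0.011, and Rmdn3, which tethers mitochondria to the endoplasmic reticulum, at 0.015. They were the nearest of 17622 genes searched, from which genes that varied far less than Polrmt over the arrays had been left out. Since they were chosen for this likeness, their lower values in ERRa KO kidneys follow from the choice and are not a separate result. Med1 read 7.92, 7.92 and 7.96 in ERRa KO kidneys, against 8.05, 8.06 and 8.07 in WT kidneys, and Rmdn3 read 9.23, 9.24 and 9.25 in ERRa KO kidneys, against 9.39, 9.38 and 9.39 in WT kidneys. Neither passed the threshold (limma adjusted p = 0.365 and 0.301).

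Around the 10 genes, 86 measured genes of 103 listed in 5 related groups were examined, and 0 passed limma's adjusted threshold. At an unadjusted p under 0.05 there were 11, 8 lower and 3 higher, which is 12.8% beside the 12.4% of all genes. Their median difference was -0.0081, with 47 lower and 39 higher.

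Of 20 measured genes of mitochondrial DNA replication, the nucleoid and nucleotide supply, 9 read lower and 11 higher (median difference 0.023). Dna2, a nuclease and helicase that removes primers, read 6.28, 6.18 and 6.21 in ERRa KO kidneys, against 6.35, 6.46 and 6.51 in WT kidneys (difference -0.22, limma adjusted p = 0.221). Top1mt, the mitochondrial topoisomerase, read 8.27, 8.15 and 8.15 in ERRa KO kidneys, against 7.99, 8.03 and 8.07 in WT kidneys (difference 0.16, adjusted p = 0.332). Both had genotypes without overlap, in opposite directions. Of 24 measured genes of mitochondrial transcription and RNA processing, 11 read lower and 13 higher (median 0.0071). Fastk, an RNA-binding protein needed for ND6 mRNA, averaged 9.06 ± 0.067 in ERRa KO kidneys and 8.92 ± 0.018 in WT kidneys (SD, n = 3 each; difference 0.14, limma adjusted p = 0.38). Tefm, the elongation factor that works with POLRMT, read 7.88, 7.98 and 7.76 in ERRa KO kidneys, against 8.02, 7.99 and 8.09 in WT kidneys (-0.16, adjusted p = 0.422).

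Of 27 measured genes of fission, fusion and inner membrane shape, 16 read lower and 11 higher (median -0.024). In this list 5 had an unadjusted p under 0.05, all lower, where 6.2% of all genes were lower at that p. Chchd3, a subunit of the MICOS complex at cristae junctions, read 10.76, 10.72 and 10.73 in ERRa KO kidneys, against 10.98, 10.91 and 10.97 in WT kidneys (difference -0.22, SE 0.053, limma adjusted p = 0.149). Miga2, an outer membrane protein that promotes fusion, read 8.75, 8.76 and 8.69 in ERRa KO kidneys, against 8.95, 8.93 and 9.12 in WT kidneys (-0.27, SE 0.067, adjusted p = 0.168). Both were without overlap, by a gap wider than that of any of the 10 genes.

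Of 14 measured activators and coregulators, 10 read lower and 4 higher (median -0.017). Ppargc1a, which encodes PGC-1α, read 10.19, 10.17 and 10.21 in ERRa KO kidneys, against 10.31, 10.30 and 10.39 in WT kidneys (difference -0.14, adjusted p = 0.347). Esrrb, a sister receptor of ERRα, read 7.34, 7.39 and 7.49 in ERRa KO kidneys, against 7.57, 7.52 and 7.59 in WT kidneys (-0.15, adjusted p = 0.378). Neither passed limma's threshold, and neither overlapped between genotypes. The Esrrb probe set is of a kind (suffix _x_at) whose probes can also match other transcripts. The product of the machinery was listed as 15 transcripts of the mitochondrial genome. Among probe sets that name 1 gene, 1 of these was measured, that of ND5, a subunit of complex I. ND5 read 14.01, 14.06 and 14.13 in ERRa KO kidneys, against 14.10, 14.06 and 14.12 in WT kidneys. These values overlapped, with a difference of -0.027 (SE 0.057, 95% interval -0.16 to 0.11). The values lie near the top of the array's range, where array signals can saturate.

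**Figure D5:**
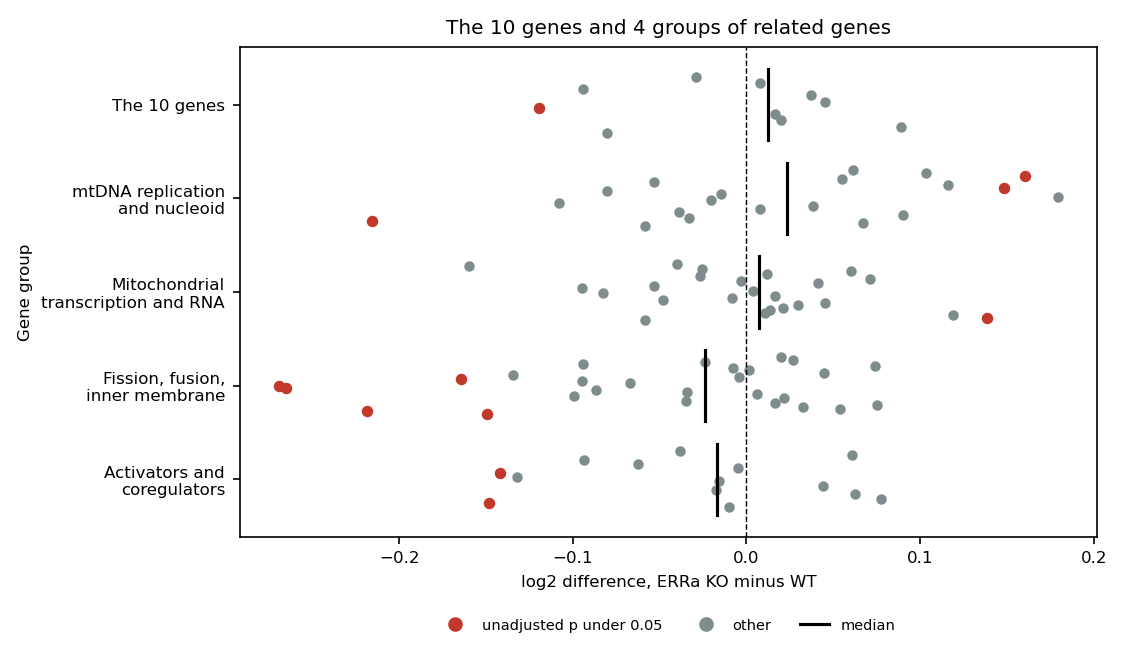
Log2 differences (ERRa KO minus WT, horizontal axis) of the 10 genes and of 4 groups of related genes, 1 point per gene; red points have an unadjusted p under 0.05 and black lines are group medians. The medians lie between -0.024 and 0.023, and the 5 red points of the fission and fusion group are all on the lower side.

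Levels of other cells' markers are given beside these values, since several differed between genotypes. Limma's adjusted threshold was passed by 4 of 9 fibroblast and proliferation markers, all lower (Col3a1, Col1a2, Mki67 and Top2a), and by 1 of 10 fat markers, higher (Cox8b), and by 0 in the other 5 marker lists. In those 5 lists, 5 of the 14 markers of mitochondria-rich tubule segments were lower and 1 higher at an unadjusted p under 0.05, 2 of 9 tubule and glomerulus markers were lower, 2 of 18 liver markers and 1 of 8 muscle markers were higher, and 4 of 10 leukocyte markers were higher and 2 lower. Over all genes 52.6% read higher and 12.4% had such a p in either direction. The tubule and glomerulus list shares Umod, Slc22a6, Lrp2, Slc12a1, Slc12a3 and Slc34a1 with the list of mitochondria-rich segments. The counts of these lists are therefore not independent.

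Of the mitochondria-rich segment markers 11 of 14 read lower. The mean of the 14 was 10.36 to 10.43 in ERRa KO kidneys, against 10.50 to 10.58 in WT kidneys. The list was not uniform. The 5 lower at an unadjusted limma p under 0.05 were Cldn16, Slc4a1, Bsnd, Kcnj1 and Umod. The 3 that read higher were Slc5a2 (0.26, without overlap, limma adjusted p = 0.143), Foxi1 (0.068) and Slc34a1 (0.00069). Tubule and glomerulus markers read lower in 6 of 9, with overlapping means (11.63 to 11.81 in ERRa KO, 11.74 to 11.89 in WT), and the distal tubule gene Calb1 read 11.63 to 12.21 in ERRa KO kidneys, against 12.37 to 12.52 in WT kidneys (-0.55, limma adjusted p = 0.162). Fibroblast and proliferation markers read lower in 9 of 9 (6.31 to 6.53 in ERRa KO, 6.99 to 7.33 in WT).

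Fat markers read higher in 9 of 10 (mean 6.94 to 7.06 in ERRa KO, 6.37 to 6.72 in WT), with the widest differences in the brown fat genes Ucp1 (1.18, with overlap), Cox8b (1.06) and Cidea (0.99). The general fat genes Fabp4 (0.11), Retn (0.087) and Adipoq (0.078) overlapped between genotypes. Leukocyte markers read higher in 7 of 10 (mean 6.13 to 6.29 in ERRa KO, 5.92 to 6.10 in WT), and the widest difference by far was in the plasma cell gene Jchain (5.96 to 8.26 in ERRa KO, 4.80 to 5.31 in WT, a difference of 2.24). The macrophage genes C1qa (-0.29) and Cd68 (-0.48) read lower without overlap, and Adgre1, another, read higher (0.21). Muscle markers read higher in 5 of 8, with low and overlapping means (4.06 to 4.13 in ERRa KO, 3.98 to 4.10 in WT). The part of these differences in the values of the 10 genes was not tested.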

How the data were processed

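Whole-kidney RNA of 3 ERRa KO and 3 WT males was hybridised to Affymetrix mouse arrays, 1 array per sample. Per the submitters' processing notes, RMA produced the deposited log2 values; its settings are left unstated there. This method corrects background, equalises the arrays and summarises probes, which compresses low values. The authors' deposited table also gives an unadjusted p-value per probe set, which was not used. The number of arrays limits the precision.

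Of 45101 probe sets, 64 controls were left out. The platform annotation names 1 gene for 34945, several for 932 and none for 9160; symbols were updated through identifiers of GRCm38.p6 (34741 found). The probe set with the highest mean stood for a gene (18194 genes). Differences were tested with limma 3.58.1 in R 4.3.3 (genotype as the only term, eBayes, two-sided) with Benjamini-Hochberg adjustment over the whole gene or probe set table; no filter on low values was used. The fit was tested on simulated data with changes of 0.25 and 0.5 in size, each placed in 100 genes. It called 3% of the changes of 0.25 and 60% of those of 0.5. Any 2 arrays shared at most 131 identical values, and correlations between arrays over genes were 0.994 to 0.998. Deviations of same-numbered replicates from their group means correlated at -0.039, -0.0031 and -0.078, so the numbers were not taken as pairs. The members, the 5 related lists and the 7 marker lists were chosen with earlier results of these data known. Named from each related list were the 2 genes with the smallest p; Alb, the markers named singly and the choice of the 4 promoters shown came after values were seen. Alternatives were a replicate block, array weights, other scalings, a filter on dim probe sets, other ways to represent a gene, an intensity-trended prior and leaving out each array.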

Additional observations from a re-analysis of the deposited data

How the results depend on the processing

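The count of the 10 genes past limma's adjusted threshold was 0 under each alternative, the replicate block included, and likewise for the 24 probe sets (21 of them after the filter on dim ones). A count at 0 says little about stability. In the main fit no gene with a difference as small as theirs was called, and the smallest called was 0.36 in size. The smallest called size was not computed for the alternatives. Polrmt's difference ran from -0.13 to -0.10 and its lowest adjusted p was 0.25. Its unadjusted p was under 0.05 in 4 of 14 alternatives, and 0.0508 with quantile normalization again, 0.0637 with centred arrays, 0.0595 with the mean of probe sets, 0.0986 with the block and 0.0628 to 0.109 without single arrays. Tfam ran from -0.13 to -0.041 without single arrays. The number of called genes among all genes, 90, was less stable: 18 with the replicate block, 170 without the dimmer probe sets, 379 with the intensity trend and robust prior, and 10 to 39 without single arrays (ERRa KO replicates 1, 2 and 3: 25, 12 and 39; WT replicates 1, 2 and 3: 10, 13 and 28). For probe sets, 50 in all, the counts were 3 with the block, 92 with array weights, 99 with arrays centred on their medians, 143 without the dimmer probe sets, 437 with the trend, and 7 (without ERRa KO replicate 2) to 35 without single arrays, with 18 without ERRa KO replicate 1 and 18, 12 and 17 without WT replicates 1, 2 and 3. The causes were not tested. Among the single genes, 8 of 140 values changed sign, none of them called. With the mean of all probe sets of a gene, Polg read -0.083, Nrf1 -0.083, Mfn1 0.0019 and Opa1 0.029. Without single arrays, Polg ran from -0.017 to 0.045, Nrf1 from -5.19e-05 to 0.077 and Mfn2 from -0.013 to 0.026. The median of the 10 genes ran from -0.015 to 0.022.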
